A study of Homo sapiens with 5 samples.

Results

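The genes described here are 31 genes of the G2/M transition and mitosis, read in RNA-seq of COLO 320DM, an established human colorectal adenocarcinoma cell line. The rule names them by gene symbol, as well-known cell division genes. All 31 were found among the 60651 genes listed in each file. COLO 320DM cells were transfected with siRNA and poly(A) RNA was sequenced in 5 libraries, 1 for each siRNA. The study's question is the role of the deubiquitinase USP17 in this cancer. Non-silencing duplexes, siNT and L2, are named by the submitters, so siIDT, sino4 and siSMPLT were read by elimination as the USP17-targeting siRNAs. All 5 groups of cells therefore carried a transfected duplex, no untransfected cells were analysed here, and siRNA sequences, doses and times were not used here. No label says that the libraries came from separate cultures. The p-values therefore rest on the scatter among 5 libraries, which may be technical and also holds whatever each duplex does through its own sequence. The 3 USP17 siRNA libraries were compared with both controls together and then with siL2 and with siNT separately, because the controls may differ from each other.

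Entry into mitosis is driven by cyclin-dependent kinase CDK1 bound to cyclins A and B. The kinases PLK1, Aurora A and Aurora B then direct spindle assembly and chromosome attachment, while the spindle checkpoint holds back the anaphase-promoting complex (APC/C), the ubiquitin ligase that destroys cyclin B and releases the sister chromatids. Most genes of this programme are transcribed late in the cell cycle, and many of their promoters carry a cell cycle genes homology region (CHR), a short element bound by the MuvB core of the DREAM, B-MYB and FOXM1 complexes, and CCAAT boxes bound by NF-Y. In a culture of dividing cells their RNA levels follow both the share of cells in G2 and mitosis and the RNA made per cell, and in bulk RNA fewer such cells and less RNA per cell cannot be told apart.

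Promoter sequences are shown first for 7 genes, because they let the reader see an element that this programme shares, in genes with different results: the cyclins CCNA2, CCNB1 and CCNB2, the kinase PLK1, the spindle motor KIF11, and MKI67 and NUF2, which together with CCNA2 were the members that passed the test against both controls. The sequences are from RefSeq, build GRCh38.p14, 5′ to 3′ on the strand of the gene. Capitals mark the CHR form TTTGAA and its variants TTCGAA, with a changed middle, and CTTGAA, with a changed first base, and the palindrome TTTAAA, each on either strand. Capitals also mark the NF-Y box CCAAT, which reads ATTGG where it lies on the opposite strand.
CCNA2, chr4:121823886-121823990, minus strand: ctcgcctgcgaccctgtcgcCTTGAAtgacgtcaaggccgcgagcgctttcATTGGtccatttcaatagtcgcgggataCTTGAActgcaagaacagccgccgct
CCNB1, chr5:69167043-69167145, plus strand: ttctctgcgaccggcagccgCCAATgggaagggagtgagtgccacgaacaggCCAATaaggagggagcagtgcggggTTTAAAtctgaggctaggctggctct
CCNB2, chr15:59105039-59105142, plus strand: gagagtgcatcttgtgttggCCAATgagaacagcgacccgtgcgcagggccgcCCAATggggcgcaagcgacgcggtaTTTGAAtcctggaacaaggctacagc
PLK1, chr16:23678781-23678885, plus strand: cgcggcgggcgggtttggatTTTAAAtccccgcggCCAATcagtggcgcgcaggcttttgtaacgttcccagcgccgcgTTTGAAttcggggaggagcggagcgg
KIF11, chr10:92593057-92593127, plus strand: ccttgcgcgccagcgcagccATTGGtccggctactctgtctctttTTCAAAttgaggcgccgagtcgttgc
MKI67, chr10:128126423-128126541, minus strand: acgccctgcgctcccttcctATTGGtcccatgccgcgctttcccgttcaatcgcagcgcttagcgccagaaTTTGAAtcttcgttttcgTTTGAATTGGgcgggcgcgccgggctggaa
NUF2, chr1:163321958-163321987, plus strand: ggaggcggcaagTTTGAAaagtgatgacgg

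Counted from the annotated start site, the CHR form nearest to it began at base -28 in CCNA2, -30 in CCNB1, -29 in CCNB2, -29 in PLK1, -28 in KIF11 and -29 in MKI67. This position was not shared by all members. The nearest CHR form was at -23 in BUB1B, -55 in KIF23, -62 in CENPE, -65 in CDC20 and 41 in CENPF. HMMR had a match at -28 and a nearer one at -22. In CCNA2, CCNB1 and CCNB2 a CCAAT box lay upstream of the nearest CHR form, at -56, -55 and -54. NUF2 differed in layout, with TTTGAA at base 17 after the start and no CCAAT box in its window. In MKI67 the last TTTGAA shares 1 base with the CCAAT box that follows it. Windows of 300 bases, 250 before to 50 after a start site, were found for 26 of the 31 genes, and AURKA, BIRC5, TTK, TPX2 and UBE2C had no entry. TTTGAA or TTCGAA occurred on either strand in 20 of the 26 (76.9%) and in 16.4% of all 35114 windows in the table. CTTGAA and TTTAAA were added to the search after these sequences had been seen. With them 25 of 26 members (96.2%) held a CHR form, against 32.2% of all windows, and AURKB was the member without one. CCAAT occurred in 20 members (76.9%), against 34.6% of all windows, and a CHR form together with CCAAT in 19 (73.1%), against 12.4%. Members were counted by gene, with a match in any of its windows. By window, of 29 member windows, TTTGAA or TTCGAA was in 75.9% and any CHR form in 93.1%. CCAAT was in 75.9% of them, and a CHR form with CCAAT in 69.0%. A match is a description of the letters and not a measured binding site.

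**Figure D1:**
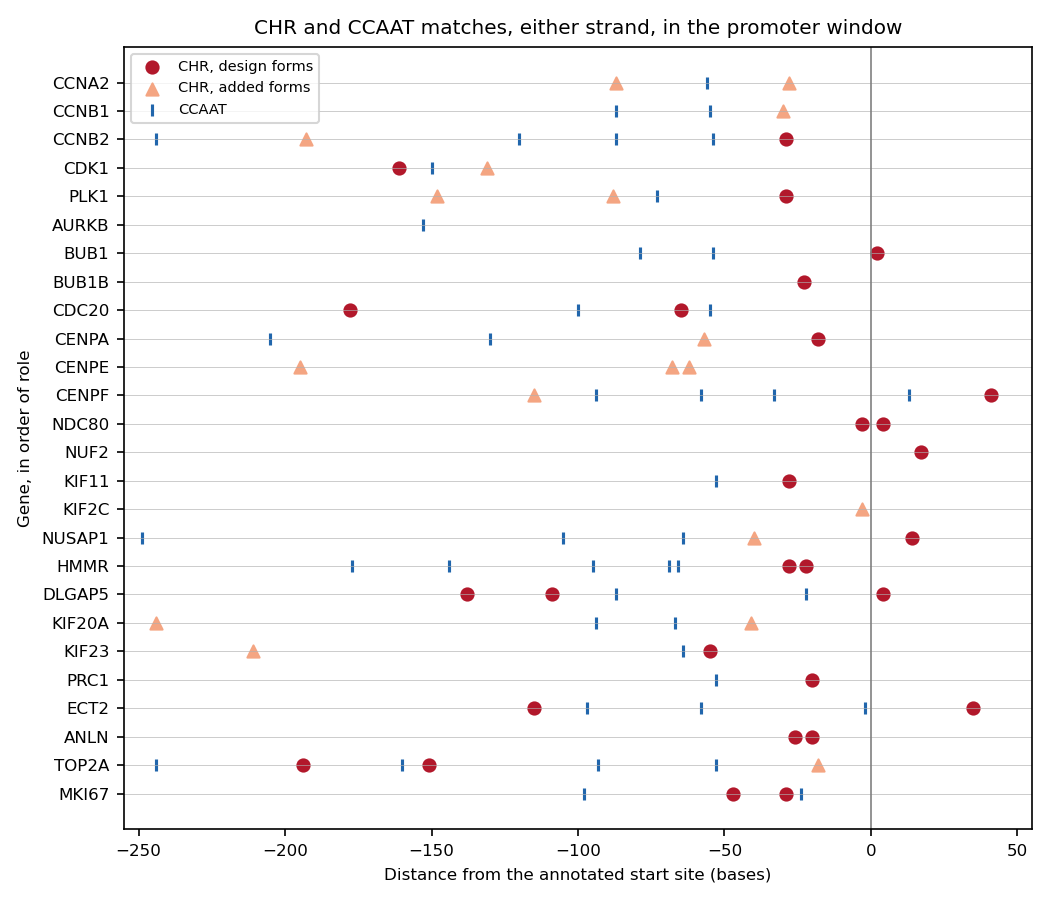
Positions of CHR and CCAAT matches in the first listed promoter window of each of the 26 matched genes, as distance in bases from the annotated start site (x axis) with 1 gene per row. Circles are TTTGAA or TTCGAA, triangles CTTGAA or TTTAAA, and vertical ticks CCAAT. The second windows of CDK1, AURKB and ECT2 are not plotted. In CCNA2, CCNB1, CCNB2, PLK1, KIF11, HMMR and MKI67 a CHR match lies between -30 and -28. In the other genes CHR matches lie elsewhere in the window, and AURKB shows none.

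Reads assigned to genes numbered 31704821 to 36276143 per library, and 3 reads, the most that a count of 0 allows, correspond to 0.0827 to 0.0946 counts scaled to library size (CPM). That limit covers counting error only. The targeted family could not serve as a check of the labels, since 30 USP17L genes were listed and all had 0 reads in all 5 libraries. Of 8 epithelial markers, CDX2, KRT8, KRT18 and CDH17 were well above that limit, EPCAM was at 1.95 to 2.78 CPM, and KRT19, CDH1 and VIL1 reached at most 0.217 CPM in any library. The summed epithelial level was 1810 to 1880 CPM in the USP17 siRNA libraries and 2130 to 2260 in the controls, most of it CDX2, which fell (log2 fold change -0.31, adjusted p = 0.0162). CDH17 went the other way and rose, from 27.2 ± 0.124 CPM (SD, n = 2) in the controls to 49.9 ± 2.15 (SD, n = 3), a log2 fold change of 0.88 (SE 0.08, adjusted p = 0.00285). The part of these markers in the results below was not tested. Summed over their lists, 5 leukocyte markers, most of it PTPRC, came to 48.2 to 54.0 against 45.5 to 55.2 CPM, 5 fibroblast markers to 20.4 to 26.9 against 24.2 to 28.5, and 4 endothelial markers to 0.062 to 0.158 against 0.248 to 0.35. Reads that fell in no gene made up 7.05% to 7.49% of reads in the USP17 siRNA libraries and 6.37% and 6.58% in the controls.

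The mitotic programme was strongly expressed in every library. Per unit of transcript length, in TPM, RSEM's length-corrected share of all transcripts as the authors computed it, the mean level over the 5 libraries ran from 36.8 TPM for ANLN to 229 TPM for TOP2A. TOP2A, UBE2C, CCNB1 and NUSAP1 were the 4 highest, and ANLN, TTK, KIF23 and NDC80 the 4 lowest. On the CPM scale, which is not corrected for length, 16 of the 31 genes were above 100 CPM in every library.

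The controls differed from each other in these genes. Every one of the 31 was higher in siNT than in siL2, whereas 50.0% of the 16341 genes tested were. The difference in log2 CPM ran from 0.08 for CCNB1 to 0.64 for NUSAP1, with a median of 0.36 against 0.00 over all genes tested. The value for NUSAP1 rests on 21 reads against 35, and on RSEM expected counts, the authors' model-based counts, it was 0.34; the next highest member was AURKB at 0.57. In 25 of the 31 the siNT level was at least 1.2-fold the siL2 level, which held for 19.6% of all genes. NUSAP1 was the 1 member that was 1.5-fold or more apart, against 12.9% of all genes, while on RSEM TPM that member was AURKB. A test of siNT against siL2, added after seeing the data, takes its spread from the USP17 siRNA libraries and assumes that each lone control varies like them. By it 3 members were higher in siNT at an adjusted p under 0.05 (edgeR), MKI67 (0.48 in log2, SE 0.08, adjusted p = 0.0194), PLK1 (0.55, SE 0.10, adjusted p = 0.0300) and CENPF (0.46, SE 0.09, adjusted p = 0.0350), against 2.04% of all genes, and none was lower. No count at an unadjusted p is given, because the share of all genes at that threshold was not computed. What separates the cultures cannot be told apart from what the duplexes do.

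The USP17 siRNA libraries often fell in the space between the controls. All 3 of them lay between siL2 and siNT in 12 of 31 members, against 11.7% of all genes tested, and these were AURKB, BUB1B, CCNB2, CDK1, DLGAP5, HMMR, KIF20A, KIF2C, PLK1, PRC1, TOP2A and TTK. The gap between the controls was wider than the range of the 3 USP17 siRNA libraries in 27 of 31 members, against 47.8% of all genes. Its median over the members was 0.36 in log2 CPM, while the range within the USP17 siRNA libraries had a median of 0.13. Over all genes tested these medians were 0.19 and 0.20. The fold change was above 0 against siL2 and below 0 against siNT in 18 of the 31, whatever the p, against 15.0% of all genes. For most members the sign of the fold change therefore depended on the control chosen. Some of these values were near 0, such as -0.01 for CENPE and -0.01 for BUB1 against siNT and 0.03 for CDC20 against siL2.

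**Figure D2:**
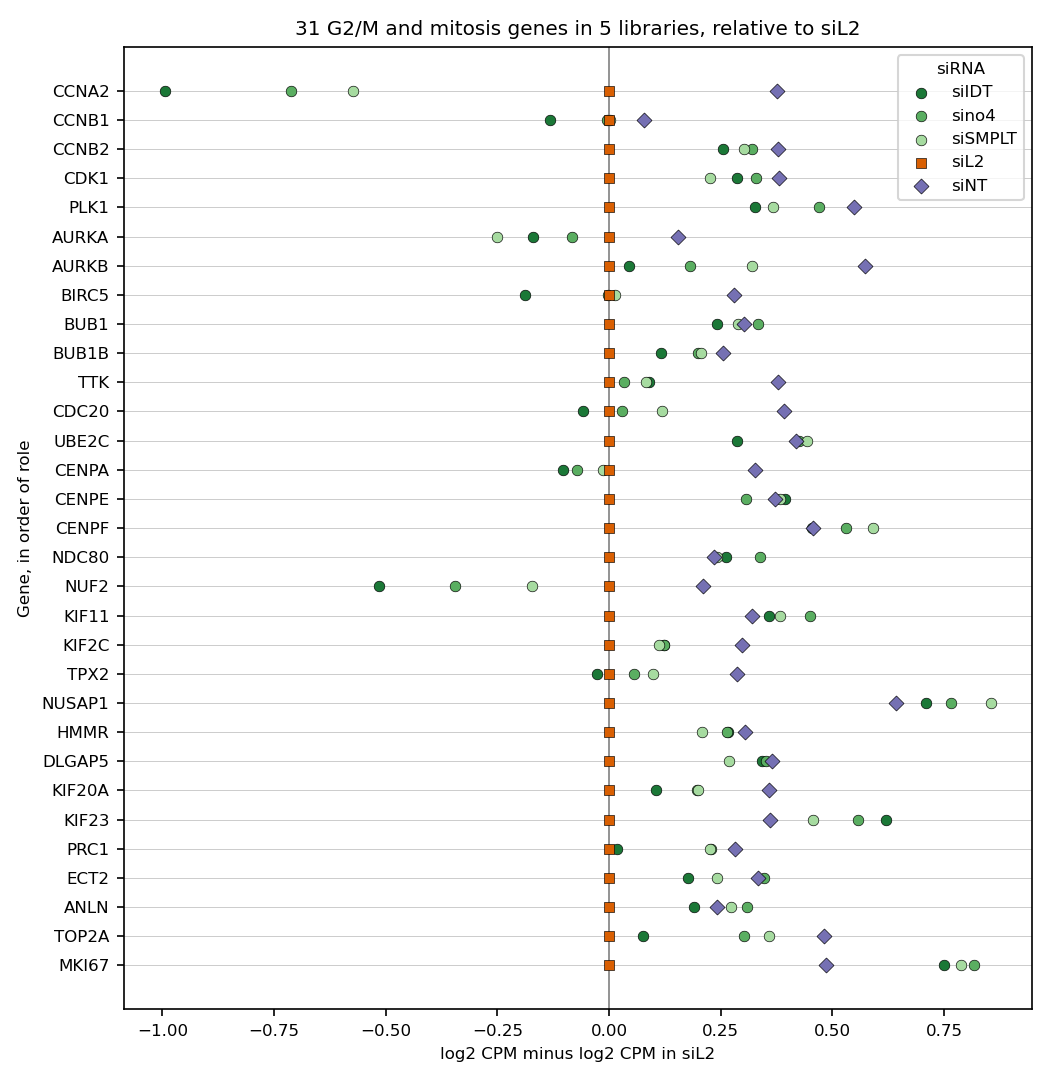
log2 CPM of each of the 31 genes in each library minus its log2 CPM in siL2 (x axis), with genes in order of role; green circles are the 3 USP17 siRNA libraries, the orange square is siL2 and the purple diamond is siNT. Every siNT diamond lies to the right of the siL2 square, by 0.08 (CCNB1) to 0.64 (NUSAP1, from 21 and 35 reads), with 0.57 in AURKB, the next highest. By the mean of the 3 USP17 siRNA points, CCNA2 and NUF2 lie farthest to the left.

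Against both controls together, 3 of the 31 genes passed an adjusted p of 0.05: CCNA2 and NUF2 were lower and MKI67 was higher after USP17 siRNA. Over all 16341 genes tested 10.5% passed (4.64% higher and 5.82% lower), so the members' share of 9.68% was near the background. The median log2 fold change of the members was 0.08, beside 0.01 for all genes. Against siL2 12 members passed, 11 higher and 1 lower, where 16.1% of all genes passed (8.45% higher and 7.61% lower). The 11 were BUB1, CCNB2, CDK1, CENPE, CENPF, DLGAP5, KIF11, KIF23, MKI67, PLK1 and UBE2C, and the lower one was CCNA2. Against siNT 9 members passed, 1 higher and 8 lower, where 14.8% of all genes passed (6.14% higher and 8.65% lower). MKI67 was again higher, and AURKA, AURKB, BIRC5, CCNA2, CDC20, CENPA, NUF2 and TTK were lower. The median log2 fold change was 0.25 against siL2 and -0.10 against siNT, beside 0.01 for all genes in both.

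CCNA2 and MKI67 were the 2 members that passed in the same direction against each control, which 6.71% of all genes did. No member passed in opposite directions against the controls, by edgeR, DESeq2 or limma-voom. At an unadjusted p under 0.05, TOP2A did so by each of the 3 tools. The tests against siL2 and siNT share the USP17 siRNA libraries, and each assumes that the lone control library varies like them. Without the sino4 library 6 members passed against siL2 (CCNA2, CENPE, CENPF, KIF11, KIF23 and MKI67) and 2 against siNT (CCNA2 and NUF2). Calls over all genes also fell, from 2624 to 1304 (8.05% of those tested) against siL2 and from 2416 to 1204 (7.44%) against siNT, and they rose without siIDT or siSMPLT. No member's call against a single control was lost without siIDT or without siSMPLT. With no filter on low counts, 2 passed against siL2 (CENPF and MKI67) and 1 against siNT (CCNA2). Over all 32019 genes then tested, 1.85% and 0.99% passed.

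**Figure D3:**
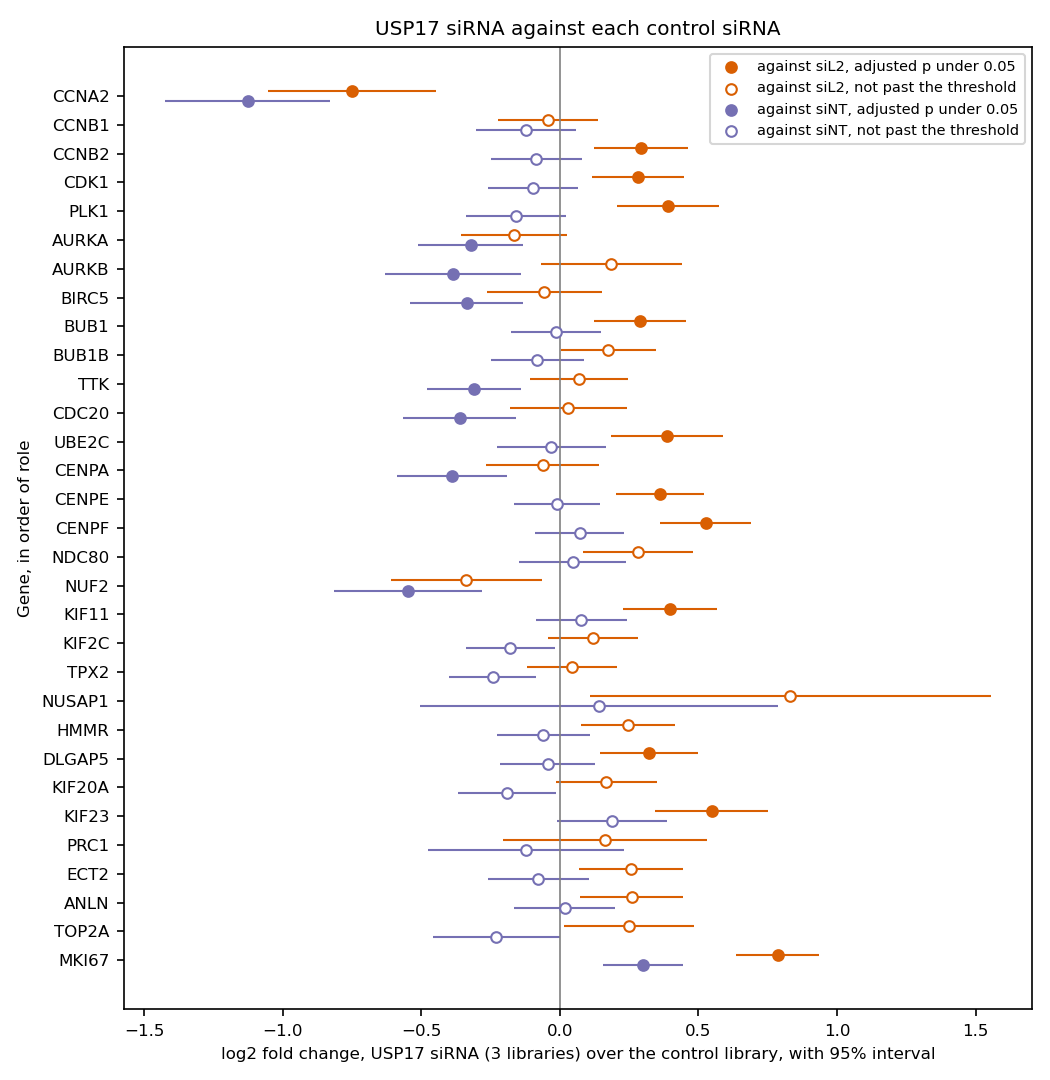
log2 fold change of the 3 USP17 siRNA libraries over siL2 (orange) and over siNT (purple) for each of the 31 genes (x axis) with 95% intervals from the edgeR fit; filled points passed an adjusted p of 0.05. The orange points lie to the right of the purple ones in every gene, and CCNA2 and MKI67 are filled on one side of 0 against each control.

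Among the 4 mitotic entry genes, CCNA2 (cyclin A2, the cyclin of S phase and early mitosis) was the 1 that passed against both controls. It lies on the minus strand of chromosome 4, at chr4:121816444-121823933 of GRCh38. Its level was 83.4 CPM in siIDT, 101 in sino4 and 112 in siSMPLT, against 166 in siL2 and 216 in siNT. The 3 USP17 siRNA libraries were all below both controls, at 98.9 ± 14.3 CPM (SD, n = 3) against 191 ± 35.0 (SD, n = 2), or 0.518 of the control level. The log2 fold change was -0.95 (SE 0.14, 95% interval -1.27 to -0.63, adjusted p = 0.00946). It was -0.75 (SE 0.13, adjusted p = 0.0096) against siL2 and -1.13 (SE 0.13, adjusted p = 0.00254) against siNT. The fall of CCNA2 was thus larger than the gap of 0.38 between the controls. Without sino4 the adjusted p for CCNA2 against both controls was 0.0513.

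The B-type cyclins and their kinase lay within or close to the range of the controls. CCNB1, which forms the main mitotic kinase with CDK1, had 172, 189 and 189 CPM in siIDT, sino4 and siSMPLT and 189 and 200 CPM in siL2 and siNT. CCNB1 had a log2 fold change of -0.08 against both controls (95% interval -0.25 to 0.09), and it passed in none of the 3 tests. CCNB2, the second mitotic B-type cyclin, had 129, 135 and 133 CPM in the USP17 siRNA libraries, all between siL2 at 108 and siNT at 140. CDK1, the mitotic kinase itself, had 225, 231 and 215 CPM, again all between siL2 at 184 and siNT at 239. Against siL2 both rose, CCNB2 by 0.29 (SE 0.07, adjusted p = 0.0318) and CDK1 by 0.28 (SE 0.07, adjusted p = 0.0346) on the log2 scale. Against siNT neither passed, at -0.09 for CCNB2 and -0.10 for CDK1.

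Of the 4 mitotic kinases and chromosomal passenger genes none passed against both controls by edgeR, DESeq2 or limma-voom, and 1, AURKA, had an unadjusted p under 0.05 by each tool. AURKA encodes the kinase that matures centrosomes and the spindle poles. It had 123, 131 and 116 CPM in siIDT, sino4 and siSMPLT, all below siL2 at 138 and siNT at 154. Its log2 fold change was -0.25 (SE 0.08, adjusted p = 0.0944) against both controls, -0.17 (adjusted p = 0.210) against siL2 and -0.32 (SE 0.08, adjusted p = 0.0365) against siNT. PLK1, the kinase of mitotic entry and spindle formation, had a wide gap between the controls, with 141 CPM in siL2 and 207 in siNT and 177, 196 and 182 CPM in the USP17 siRNA libraries between them. It was 0.39 higher in log2 than siL2 (SE 0.08, adjusted p = 0.0165), and its value of -0.16 against siNT did not pass.

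Aurora B and survivin, partners in the chromosomal passenger complex that corrects attachments and guides cytokinesis, passed against siNT and in neither of the other tests. AURKB had 56.6, 62.2 and 68.5 CPM after USP17 siRNA, between siL2 at 54.9 and siNT at 81.6. Its log2 fold change was -0.39 (SE 0.11, adjusted p = 0.0458) against siNT and 0.19 (adjusted p = 0.292) against siL2. BIRC5, the gene of survivin, had 172, 195 and 197 CPM against 195 in siL2 and 237 in siNT. It was -0.34 (SE 0.09, adjusted p = 0.0404) against siNT and -0.06 (adjusted p = 0.711) against siL2. With RSEM expected counts in place of the read counts, the adjusted p against siNT was 0.0589 for AURKB and 0.0705 for BIRC5.

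Of the 5 spindle checkpoint and APC/C genes none passed against both controls by any of the 3 tools, and none had an unadjusted p under 0.05 there. BUB1, a kinase that builds the checkpoint on kinetochores, had 197, 209 and 203 CPM after USP17 siRNA, near siNT at 205 and above siL2 at 166. It rose by 0.29 (SE 0.07, adjusted p = 0.0309) against siL2. UBE2C, the ubiquitin-conjugating enzyme of the APC/C, followed the same layout at 105, 116 and 117 CPM, with siL2 at 86.3 and siNT at 115, and rose by 0.39 (SE 0.09, adjusted p = 0.0228) against siL2.

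TTK and CDC20 instead lay close to siL2. TTK, the kinase that starts checkpoint signalling, had 80.1, 77.1 and 79.7 CPM, with siL2 at 75.3 and siNT at 97.9. TTK was -0.31 in log2 fold change (SE 0.07, adjusted p = 0.0294) against siNT. CDC20, the APC/C activator that the checkpoint restrains, had 63.1, 67.0 and 71.3 CPM, with siL2 at 65.7 and siNT at 86.2. It was -0.36 (SE 0.09, adjusted p = 0.0315) against siNT, or 0.0511 with RSEM expected counts. BUB1B, a subunit of the inhibitor that binds CDC20, had 149 to 159 CPM between siL2 at 138 and siNT at 165 and passed in none of the 3 tests.

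The 5 centromere and kinetochore genes did not share a direction. NUF2 and NDC80 are partners in the complex that binds microtubule ends, and their values lay on opposite sides of the controls. NUF2, at chr1:163266576-163355764 on the plus strand, had 74.1, 83.4 and 94.0 CPM in siIDT, sino4 and siSMPLT, all below siL2 at 106 and siNT at 123. The means were 83.9 ± 9.95 CPM (SD, n = 3) and 114 ± 11.8 (SD, n = 2), a log2 fold change of -0.45 (SE 0.11, 95% interval -0.70 to -0.19, adjusted p = 0.0399). Against the single controls NUF2 was -0.34 (SE 0.12, adjusted p = 0.0898) for siL2 and -0.55 (SE 0.12, adjusted p = 0.0199) for siNT. The call for NUF2 against both controls was close to the threshold: the adjusted p was 0.0501 with RSEM expected counts, 0.120 without siIDT, 0.154 without sino4 and 0.0897 without siNT. NDC80 had 54.8, 57.7 and 54.0 CPM, all above siL2 at 45.6 and siNT at 53.8, and passed in none of the 3 tests (log2 fold change 0.16, 95% interval -0.05 to 0.37, against both controls).

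CENPA, the histone H3 variant that marks centromeres, was the other kinetochore gene below both controls. It had 35.0, 35.8 and 37.2 CPM, with siL2 at 37.6 and siNT at 47.1, and its log2 fold change was -0.39 (SE 0.09, adjusted p = 0.0228) against siNT and -0.06 (adjusted p = 0.669) against siL2. CENPE, a motor that carries chromosomes to the spindle equator, and CENPF, a large protein of the outer kinetochore, rose against siL2. CENPE had 351, 331 and 348 CPM, with siL2 at 267 and siNT at 346, a log2 fold change of 0.36 (SE 0.07, adjusted p = 0.0124) against siL2. CENPF had 793, 837 and 873 CPM, with siL2 at 579 and siNT at 794, a log2 fold change of 0.53 (SE 0.07, adjusted p = 0.00367) against siL2. Against siNT neither passed, at -0.01 for CENPE and 0.07 for CENPF.

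The 6 spindle assembly genes were all positive against siL2, and 2 of the 6 passed. Over all 16341 genes tested, 8372 were positive against siL2 and 16.1% passed. All 6 were lower in siL2 than in siNT, and the value of NUSAP1 rests on 21 to 37 reads per library. None of the 6 passed against both controls by any of the 3 tools. Of them 1, KIF11, had an unadjusted p under 0.05 there by edgeR and limma-voom, and 0 did by DESeq2. KIF11, the motor that pushes the spindle poles apart, had 196, 209 and 200 CPM, all above siL2 at 153 and siNT at 191. It rose by 0.40 (SE 0.07, adjusted p = 0.011) against siL2 and was at 0.08 (adjusted p = 0.502) against siNT. DLGAP5, a protein that stabilises spindle microtubules, had 117, 118 and 112 CPM between siL2 at 92.6 and siNT at 119 and rose by 0.32 (SE 0.08, adjusted p = 0.0269) against siL2.

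The other spindle genes passed in none of the 3 tests. KIF2C, a motor that takes microtubules apart, was the steadiest of the 31 across the duplexes, at 112, 112 and 111 CPM between siL2 at 103 and siNT at 126. TPX2, the activator of Aurora A on the spindle, had 421, 446 and 459 CPM, with siL2 at 429 and siNT at 523. Its log2 fold change of -0.24 against siNT was just outside the threshold by edgeR (adjusted p = 0.0503), and it passed by limma-voom. HMMR, a spindle pole protein, had 114 to 119 CPM between siL2 at 99.0 and siNT at 122.

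Of the 5 genes of the midzone and cytokinesis, KIF23 had the largest log2 fold change against both controls. It encodes a motor of centralspindlin, the complex that organises the midzone and recruits ECT2. KIF23 had 109, 105 and 97.7 CPM, all above siL2 at 71.1 and siNT at 91.3. Its log2 fold change was 0.55 (SE 0.09, adjusted p = 0.00703) against siL2 and 0.19 (adjusted p = 0.181) against siNT. Against both controls it was 0.36 (SE 0.11, 95% interval 0.10 to 0.61, adjusted p = 0.0787) by edgeR, and the adjusted p was 0.0403 by DESeq2. No gene of this group passed against both controls or against siNT by edgeR, with 1 at an unadjusted p under 0.05 in each comparison. DESeq2 called 1 (KIF23) and 0, and limma-voom 0 and 0. KIF20A, a motor of the late midzone, had 91.8 to 97.9 CPM between siL2 at 85.3 and siNT at 109. ECT2, the activator of RHOA at the cleavage furrow, had 265 to 298 CPM, with siL2 at 234 and siNT at 295. ANLN, the scaffold of the contractile ring, had 108 to 117 CPM, with siL2 at 94.4 and siNT at 112. None of these 3 passed in any test.

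TOP2A and MKI67, the genes of chromosome structure, had different outcomes. MKI67 encodes Ki-67, the coat of mitotic chromosomes used as a marker of dividing cells, and lies at chr10:128096659-128126385 on the minus strand. It had 642, 672 and 660 CPM in siIDT, sino4 and siSMPLT, against 382 in siL2 and 534 in siNT. All 3 USP17 siRNA libraries were above both controls, at 658 ± 15.2 CPM (SD, n = 3) against 458 ± 108 (SD, n = 2), or 1.44 times the control level. The log2 fold change of MKI67 was 0.52 (SE 0.12, 95% interval 0.24 to 0.81, adjusted p = 0.0348) against both controls, 0.79 (SE 0.06, adjusted p = 0.00066) against siL2 and 0.30 (SE 0.06, adjusted p = 0.0184) against siNT. Without 1 USP17 siRNA library the adjusted p against both controls was 0.0947 (siIDT), 0.132 (sino4) or 0.0851 (siSMPLT), while the log2 fold change stayed between 0.51 and 0.54. TOP2A, the topoisomerase that untangles sister chromatids, had 690, 806 and 838 CPM, all between siL2 at 654 and siNT at 913. Its log2 fold change was -0.01 (95% interval -0.32 to 0.30) against both controls, 0.25 (adjusted p = 0.136) against siL2 and -0.23 (adjusted p = 0.156) against siNT.

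**Figure D4:**
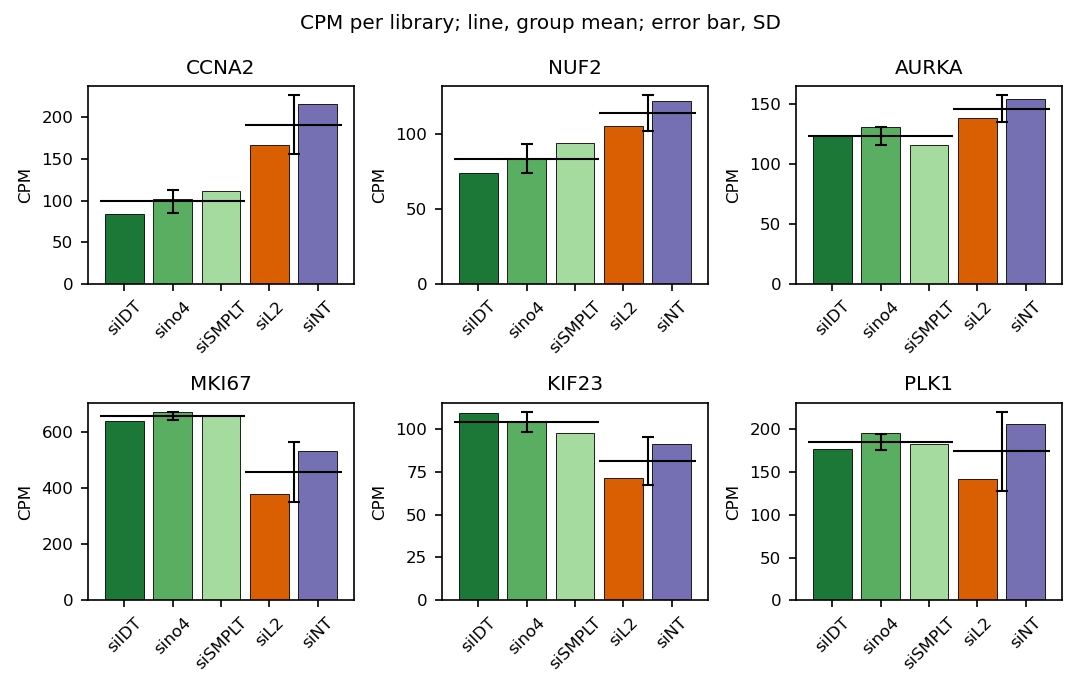
CPM (y axis, from 0) of CCNA2, NUF2, AURKA, MKI67, KIF23 and PLK1 in each of the 5 libraries; bars are single libraries, horizontal lines the group means and error bars the SD (n = 3 USP17 siRNA, n = 2 control). CCNA2, NUF2 and AURKA bars are lower in the 3 USP17 siRNA libraries than in both controls, MKI67 and KIF23 bars are higher, and PLK1 lies between siL2 at 141 and siNT at 207.

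The groups did not overlap in 9 of the 31 genes, against 45.9% of all genes tested. KIF11, KIF23, MKI67, NDC80 and NUSAP1 were above both controls in all 3 USP17 siRNA libraries (23.3% of all genes were), and AURKA, CCNA2, CENPA and NUF2 were below both (22.6% of all genes were). The place of NUSAP1 here rests on 21 to 37 reads per library: on RSEM TPM its groups overlapped, with 187 in siIDT and 220 in siNT. On that scale 9 members again did not overlap, against 43.1% of all genes. NUSAP1 and CENPA were no longer among them, and ANLN and CENPF were, both above the controls. NDC80 was close to overlap, at 54.0 CPM in siSMPLT against 53.8 in siNT. On counts without regard to strand 9 members did not overlap, against 45.8% of all genes. There CCNB1, below both controls, stood in place of NDC80. The duplexes also differed among themselves. The siIDT library was the lowest of the 3 in 22 members, siSMPLT in 7 and sino4 in 2. The lowest library was not counted over all genes, so no background stands beside these counts. Relative to siL2 the median member was 0.18 higher in log2 CPM in siIDT, 0.30 in sino4 and 0.24 in siSMPLT, with 23, 25 and 27 of 31 members above siL2. Relative to siNT the medians were -0.16, -0.06 and -0.10, with 6, 10 and 9 members above siNT. Over all 16341 genes tested, 8355, 8246 and 8292 were above siL2 in siIDT, sino4 and siSMPLT, and 8277, 8300 and 8243 were above siNT. CCNA2 and NUF2 had the same order of duplexes, lowest in siIDT and highest in siSMPLT.

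The values for NUSAP1 and PRC1 depend on how reads were counted. NUSAP1, a protein that bundles spindle microtubules, had 21 to 37 reads per library in the read count tables but RSEM expected counts of 6875 to 9251, so that 0.30% to 0.49% of the expected number was counted. PRC1, which bundles the antiparallel microtubules of the midzone, had 174 to 226 reads against 5239 to 6162 expected, or 3.20% to 3.67%. In the other 29 members the read count was 86.6% to 107% of the expected count, lowest in BUB1B. GENCODE release 29 places a second protein-coding gene on the same strand over each: AC087721.2 at chr15:41284013-41380743 over NUSAP1 at chr15:41332694-41381050, and AC068831.7 at chr15:90966190-91022566 over PRC1 at chr15:90966038-90995629. STAR's gene counts leave out reads that overlap more than 1 gene, so the read counts of this pair are uncertain. By RSEM, NUSAP1 ranked 4 of 31 in mean TPM and PRC1 ranked 11.

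On RSEM expected counts both genes were close to 0 in log2 fold change against both controls. NUSAP1 had 187 TPM in siIDT, 221 in sino4 and 224 in siSMPLT, against 166 in siL2 and 220 in siNT, and a log2 fold change against both controls of 0.05 (adjusted p = 0.816). PRC1 had 121, 123 and 130 TPM against 113 and 128, and a log2 fold change of 0.05 (adjusted p = 0.698). From the read counts those values had been 0.44 (95% interval -0.19 to 1.07) for NUSAP1 and 0.01 (95% interval -0.33 to 0.35) for PRC1. CCNA2 also has a neighbour, EXOSC9, whose 3′ end overlaps it on the opposite strand, at chr4:121801317-121817021. On expected counts CCNA2 was at -0.95 (adjusted p = 0.0145) and on counts made without regard to strand at -0.95 (adjusted p = 0.00837), against -0.95 on its own strand.

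**Figure D5:**
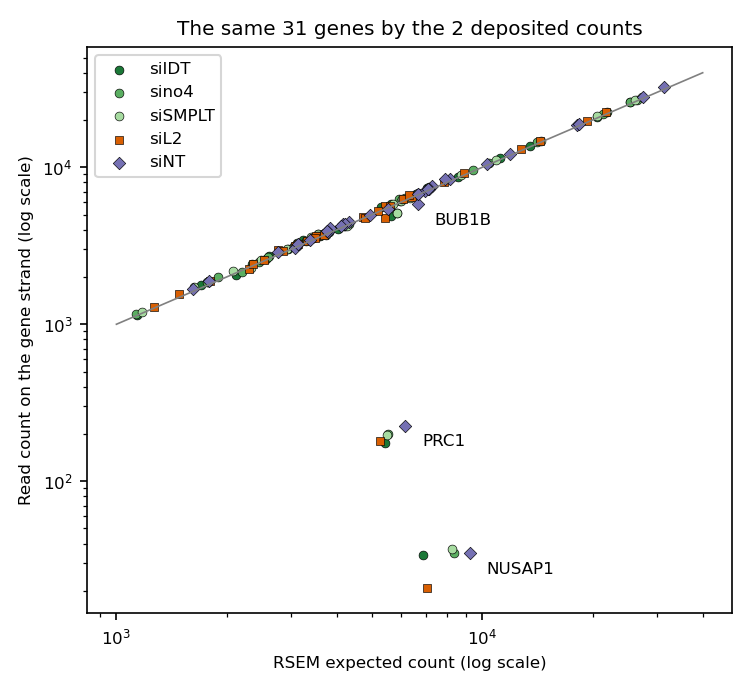
Read count on the gene's strand (y axis, log scale) against RSEM expected count (x axis, log scale) for the 31 genes in each of the 5 libraries; the line marks equal values. The points of 29 genes lie on or near the line, BUB1B slightly under it, and NUSAP1 and PRC1 far under it in every library.

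The 3′ untranslated regions of the members were searched for 3 heptamers that an earlier look at these data had picked because the genes carrying them fell. They were ATCACTC, its overlapping neighbour TCACTCA, and a separate one, GATCATC. The search is therefore a description and supports nothing about the fall of CCNA2. Both sites are shown because they are in members that were lower than siNT, with the heptamer ATCACTC in capitals, from GENCODE release 29 on GRCh38.
CCNA2, chr4:121817585-121817614, minus strand: ctaagatgtaaATCACTCaaagtatatggt
TTK, chr6:80042285-80042314, plus strand: ttgaagacaacATCACTCtgaagtgttatc

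ATCACTC began at base 35 of the 1194-base region of CCNA2 and at base 94 of the 325-base region of TTK. It occurred in 2 of 31 members, against 6.76% of the 12296 genes searched. The CCNA2 site runs on into TCACTCA, which no other member held and which 10.4% of all genes searched did. GATCATC occurred in 0 of 31 members and in 5.29% of all genes. NUF2 and MKI67, the other members past the threshold against both controls, held none of the 3.

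Other genes of the same pathways were read from 9 lists of 143 genes, of which 142 were tested. MAD1L1 had too few reads in the read counts, while on RSEM expected counts all 143 were tested. Against both controls 12 of the 142 passed (8.45%), 9 higher and 3 lower, beside 10.5% of all genes. Of 8 condensin genes 1 rose, NCAPG, a subunit that compacts mitotic chromosomes (log2 fold change 0.46, SE 0.08, adjusted p = 0.0151). Of 14 cohesin genes 2 rose, PDS5B (0.41, adjusted p = 0.019) and STAG1 (0.36, adjusted p = 0.027). Among 24 kinesin and spindle genes ASPM, a spindle pole protein, rose (0.47, SE 0.08, adjusted p = 0.0164). The 28 further kinetochore genes had SKA3 (0.38, adjusted p = 0.0252) and CENPC (0.35, adjusted p = 0.0433) higher and CENPL (-0.34, adjusted p = 0.0485) lower. ANAPC2, the scaffold of the catalytic core of the APC/C, was the 1 of 17 APC/C genes that passed (0.45, SE 0.10, adjusted p = 0.0258). Of the transcription regulators of this programme, 15 in number, NFYA, a subunit of NF-Y, passed (0.35, SE 0.09, adjusted p = 0.0382).

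The remaining lists had 1 call each. CKS2, the small subunit that docks on CDK1, fell (-0.31, SE 0.08, adjusted p = 0.0479) among 14 mitotic entry regulators. SEPTIN9, a filament protein of the cleavage furrow, fell (-0.56, SE 0.13, adjusted p = 0.0312) among 12 cytokinesis genes. TPR, a nuclear pore protein that holds checkpoint components, rose (0.24, SE 0.07, adjusted p = 0.0495) among the 10 checkpoint genes tested. Between the controls, 115 of the 142 (81.0%) were higher in siNT, with a median difference of 0.19 in log2 CPM against 0.36 for the 31 members. All 8 condensin genes were higher in siNT, 26 of 28 kinetochore genes, 22 of 24 kinesin and spindle genes and 12 of 14 cohesin genes. The APC/C genes were higher in siNT in 8 of 17, with a median of -0.02. The transcription regulators were higher in siNT in 8 of 15, with a median of 0.06.

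Genes of the preceding stage of the cell cycle, G1/S and DNA replication, had a smaller median difference between the controls. Of 40 such genes 30 were higher in siNT than in siL2, with a median of 0.09 in log2 CPM. Against both controls 3 of 40 passed (7.5%). CCNE2, a cyclin of S phase entry, rose from 13.9 ± 4.24 to 31.7 ± 6.56 CPM (SD, log2 fold change 1.19, SE 0.22, adjusted p = 0.0172). RRM2, a subunit of ribonucleotide reductase, rose from 252 ± 33.8 to 443 ± 53.7 CPM (0.82, SE 0.12, adjusted p = 0.00938). GINS1, a subunit of the replicative helicase, fell from 84.8 ± 9.39 to 56.2 ± 6.92 CPM (-0.59, SE 0.12, adjusted p = 0.0192). The difference between these lists and the 31 members was not tested.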

How the data were processed

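Per the submitters' processing notes, reads were converted with bcl2fastq 2.20, aligned to GRCh38 with STAR 2.7.1a and quantified with RSEM 1.3.2. Which annotation, read layout and strand setting they used is not given in the sources used here. Whole-number read counts per gene were deposited, and same-strand counts, 18.7 to 19.9 times those of the opposite strand, were used. Unmapped, multi-mapped, ambiguous and unannotated reads (22.8% to 24.4%) stayed out of library sizes. The deposited RSEM tables hold expected counts and TPM as the authors computed them. Expected counts were rounded to whole numbers for the tests.

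From the counts, TMM-scaled CPM (log2 CPM with a prior count of 2) and edgeR 4.0.16 quasi-likelihood F tests, two-sided, were computed in R 4.3.3 over the 16341 genes kept by filterByExpr (minimum count 10, minimum total 15), with Benjamini-Hochberg adjustment over all of them and a threshold of 0.05. The single-control tests used 1 fit with 3 levels (USP17 siRNA, siL2, siNT), as did a test of siNT against siL2 added after seeing the data. The SE was the log2 fold change divided by the square root of F. The code was tested on simulated counts. DESeq2 1.42.0, limma 3.58.1 (voom), other filters, counts without regard to strand, RSEM expected counts and leaving out each library were alternatives. Depth was 31704821 to 36276143 reads in genes per library.

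Symbols were matched to Ensembl identifiers, with version numbers ignored, for 42061 genes. GENCODE release 29 held 58405 of the listed identifiers and gave the gene positions. It also gave the 3′ untranslated regions of the 12296 genes searched, and promoter windows came from RefSeq (GRCh38.p14). All members were named, with statistics for those past the threshold in any of the 3 tests. From the pathway lists up to 3 called genes per list were named. The members, the lists and the heptamers were chosen with earlier results of these data known.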

Additional observations from a re-analysis of the deposited data

How the results depend on the processing

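Each library is the only one of its duplex, and no gene-level spread between cultures could be measured. No paired analysis was possible because the labels carry no replicate numbers. Against both controls, 3 members passed under each other scaling, filter, strand choice and limma-voom, where 4.62% to 11.4% of all genes passed. The count was 4 by the DESeq2 Wald test (14.3% of all genes), 2 with RSEM expected counts (9.31%) and 5 at an adjusted p of 0.10 (18.8%). Leaving out 1 library gave 0 to 12: 0 when sino4 was dropped (by edgeR, with 5 at an unadjusted p under 0.05, and no other tool was run there), 1 for siIDT, 2 for siSMPLT, 10 for siL2 and 12 for siNT. Calls over all genes moved the same way, from 10.5% to 0.803%, 2.16%, 6.44%, 14.4% and 15.5% in that order. Against siL2 the count of 12 fell to 2 with no filter on low counts, where 1.85% of 32019 genes tested passed. It was 6 to 18 with 1 USP17 siRNA library left out, where 8.05% to 29.2% of all genes passed. Against siNT the count of 9 was 1 with no filter (0.99% of all genes) and 6 with RSEM expected counts (12.1%). It was 2 to 12 with 1 USP17 siRNA library left out, where 7.44% to 29.4% of all genes passed.

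All 31 members were higher in siNT than in siL2 with DESeq2's size factors, counts without regard to strand, RSEM TPM and a prior count of 5, which were chosen for this count after seeing the data. The count 1.5-fold apart was 0 at 2-fold and 0 with a prior count of 5; it was NUSAP1 on read counts and AURKB on RSEM TPM. Members without overlap numbered 10 to 27 with 1 library left out, where 51.6% to 73.6% of all genes did not overlap. They numbered 25 without siL2 and 27 without siNT, where 73.6% and 73.1% of all genes did not overlap. Other pathway genes past the threshold numbered 0 to 44: by edgeR 0 when siIDT was dropped (28 at an unadjusted p under 0.05), 0 for sino4 (21), 5 for siSMPLT, 14 for siL2 and 44 for siNT. The shares of all genes called without each library are given above. Values near 0 changed sign: ANLN against siNT was -0.001 on counts without regard to strand, NUSAP1 against siNT -0.104 with RSEM expected counts and TOP2A against both controls 0.004 by limma-voom.

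With 1 library left out, log2 fold changes against both controls spanned 0 in AURKB (-0.39 to 0.18), BUB1 (-0.013 to 0.29), BUB1B (-0.082 to 0.17), CCNB2 (-0.086 to 0.29), CDC20 (-0.36 to 0.030), CDK1 (-0.10 to 0.28), CENPE (-0.011 to 0.36), DLGAP5 (-0.044 to 0.32), ECT2 (-0.078 to 0.26), HMMR (-0.060 to 0.25), KIF20A (-0.19 to 0.17), KIF2C (-0.18 to 0.12), PLK1 (-0.16 to 0.39), PRC1 (-0.12 to 0.16), TOP2A (-0.23 to 0.25), TPX2 (-0.24 to 0.043), TTK (-0.31 to 0.068) and UBE2C (-0.032 to 0.39). They also did so against siL2 in BIRC5 (-0.10 to 0.0021) and CDC20 (-0.018 to 0.070), and against siNT in ANLN (-0.0072 to 0.055), BUB1 (-0.033 to 0.015), CENPE (-0.022 to 0.018) and UBE2C (-0.061 to 0.021).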

Other observations

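Longer members tended to have higher fold changes. Over the 29 members other than NUSAP1 and PRC1, Spearman's rho between the RSEM effective transcript length and the log2 fold change was 0.47 against both controls, 0.40 against siL2 and 0.51 against siNT. Over 16326 genes tested it was 0.07, 0.12 and 0.00. MKI67, the longest member at 10344 bases, was the highest of the 29 in each comparison, and the values share libraries, so this is a description with no test. Genes over 6000 bases had a median log2 fold change of 0.09 against both controls, beside -0.02 in genes under 1000 bases. The part of length in the members' values was not tested.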
